A study of Mus musculus with 6 samples.

Results

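Genes for 10 angiogenic ligands and vascular receptors were followed in cells labelled 4T1, a mouse mammary carcinoma line: the vascular endothelial growth factor (VEGF) family ligands Vegfa, Vegfb, Vegfc and Pgf, the VEGF receptors Kdr and Flt1, the angiopoietins Angpt1 and Angpt2, the angiopoietin-like gene Angptl4 and the secreted EGF-like gene Egfl7. They were chosen by symbol, each matched 1 row, and together they made up 10 of 31854 rows of the count table. RNA-seq was run on 6 libraries of total RNA. The 3 control libraries came from cells with the empty pLVX vector (labelled WT), and the 3 LINC01133 libraries from cells with the same vector carrying LINC01133, a human long noncoding RNA. Both groups thus carry the vector. The labels do not say whether a group was 1 clone or a pool, or whether replicates were grown apart. The p-values therefore reflect the spread among 3 libraries a group, which may be technical. No parental sample was analysed here, and "rose" and "fell" only compare the groups.

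VEGF-A, VEGF-B and placental growth factor (the product of Pgf) bind the receptor kinase FLT1 on endothelial cells, and VEGF-A also drives vessel growth through the kinase KDR. VEGF-C acts mainly on lymphatic vessels through FLT4. Angiopoietin-1 activates the endothelial receptor TEK (Tie2) and steadies vessels, and angiopoietin-2 usually opposes it. Tumour cells are a common source of the ligands, while the receptors are best known from endothelium.

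Total counts were 25521469 to 33877549 per library, and 3 counts in a library corresponded to 0.0886 to 0.118 CPM of its total, CPM being a gene's count scaled to a library of 1000000 reads. Of 14116 genes tested with edgeR, 84.9% were called (Benjamini-Hochberg adjusted p under 0.05), 44.5% higher and 40.5% lower with LINC01133, and the groups did not overlap in 85.0%. Being called was therefore the common outcome for a gene in this comparison. Scaling by library size alone raised the median log2 difference over all tested genes by 0.24, and gave 65.0% of calls as higher against 52.4% with the TMM scaling used below. Of the mammary epithelial markers looked for, 5 of 8 were higher and 3 lower. Krt8 was at 145.3 ± 3.82 CPM in the controls and 217.0 ± 3.03 CPM with LINC01133 (SD, n = 3), and Krt18 at 2.06 ± 0.213 and 158.2 ± 4.45 CPM. The defining epithelial genes Cdh1 and Epcam, singled out after their values were seen, had 4 and 0 counts over the 3 control libraries and 138 and 78 counts with LINC01133, so they were at or near 0 in the controls. Whether both groups were grown from the same line was not tested beyond their labels, and a difference between the cells that carry each vector cannot be told apart from an effect of LINC01133, which bears on every fold change below. Reads of the ribosomal precursor Rn45s were 21.0% to 27.9% of each total.

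Of the 10 genes, 6 were called higher with LINC01133 (Vegfc, Pgf, Flt1, Angpt1, Angptl4 and Egfl7) and 3 lower (Vegfa, Vegfb and Angpt2). Kdr was below the count filter. The 3 genes that fell were the 3 most abundant of the group in the controls, and the 6 that rose started low. In 9 of the 10 genes the same direction was called under all 16 alternative settings. Of the 9 tested genes, 4 (Flt1, Angpt1, Angptl4 and Egfl7) passed the count filter only through the LINC01133 libraries, so they could enter the test only by being higher there. Among all tested genes with a control mean under 1 CPM, 77.1% were called higher. All 6 that rose were at least 2-fold higher and 5 of them at least 8-fold, as were 20.3% and 9.94% of all tested genes, and of those that fell only Vegfb was at least 2-fold lower, as were 13.9%. The number of genes that rose is thus not evidence about the group, and the sizes below are given gene by gene. Counts over the lists below are likewise descriptions, to be read beside the 44.5% of all tested genes called higher and 40.5% called lower. Those lists also hold genes that passed the count filter only through the LINC01133 libraries, among them Tek, Rgs5 and Slc25a20.

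**Figure D1:**
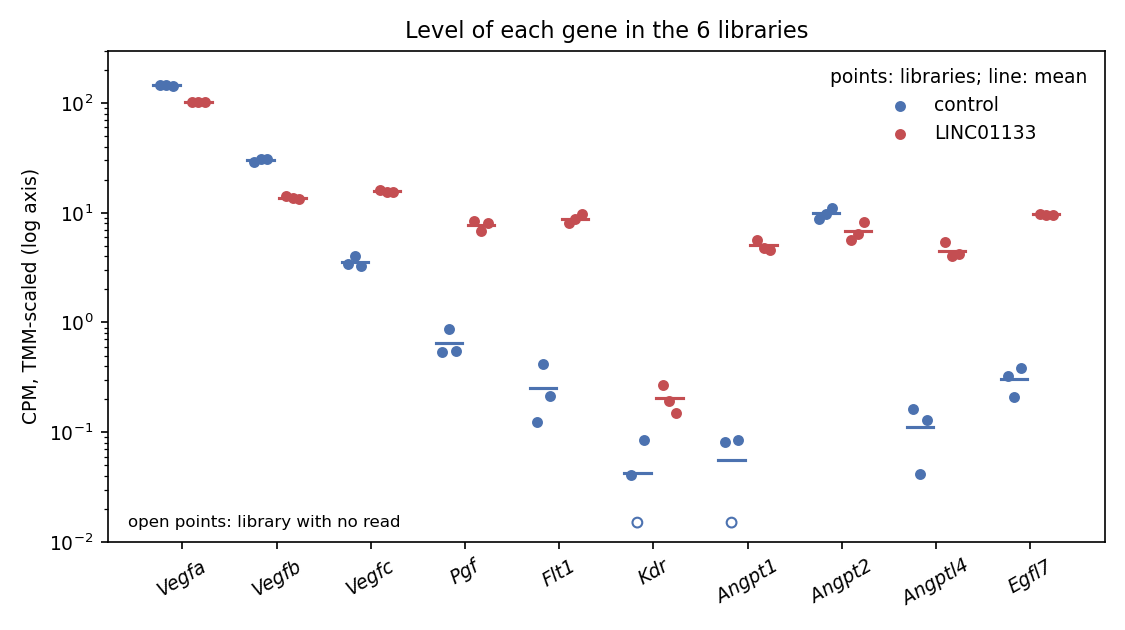
Level of each gene in CPM (log axis) in the 3 control and 3 LINC01133 libraries, with lines at the group means and open points for libraries with no read. The groups are apart for each gene, by a small step for Vegfa and Angpt2 and by a factor over 30 for Flt1, Angptl4, Egfl7 and Angpt1.

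The 250 bases upstream of the annotated start (RefSeq, GRCm38.p6, the assembly of mm10) are shown for FLT1 and the ligands that bind it, since Flt1 and Pgf rose while Vegfa and Vegfb fell. Vegfa and Pgf have 2 annotated starts each, and the one nearest the GENCODE gene start was taken; the sequences read 5′ to 3′ on the gene's strand. Capitals mark, on either strand, the GC box GGGCGG, the hypoxia response core ACGTG or GCGTG, the CRE TGACGTCA and the TATA box TATAAA; AP-1 sites TGANTCA were also searched. Matches that overlap run together.
Vegfa, chr17:46032378-46032627, minus strand: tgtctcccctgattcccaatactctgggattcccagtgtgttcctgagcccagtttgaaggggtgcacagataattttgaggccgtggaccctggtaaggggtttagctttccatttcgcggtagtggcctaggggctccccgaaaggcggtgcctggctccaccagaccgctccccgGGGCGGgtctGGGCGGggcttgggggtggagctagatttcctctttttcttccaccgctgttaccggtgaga
Vegfb, chr19:6987652-6987901, minus strand: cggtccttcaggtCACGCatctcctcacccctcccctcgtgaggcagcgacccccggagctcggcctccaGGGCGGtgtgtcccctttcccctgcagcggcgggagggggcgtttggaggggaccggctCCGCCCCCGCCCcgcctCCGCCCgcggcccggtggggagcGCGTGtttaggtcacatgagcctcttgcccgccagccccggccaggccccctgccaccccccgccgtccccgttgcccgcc
Pgf, chr12:85177314-85177563, minus strand: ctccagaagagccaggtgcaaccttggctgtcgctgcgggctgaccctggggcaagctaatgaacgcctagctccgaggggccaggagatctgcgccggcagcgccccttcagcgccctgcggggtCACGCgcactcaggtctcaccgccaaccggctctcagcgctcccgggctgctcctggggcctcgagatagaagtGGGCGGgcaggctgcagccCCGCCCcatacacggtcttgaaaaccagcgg
Flt1, chr5:147726012-147726261, minus strand: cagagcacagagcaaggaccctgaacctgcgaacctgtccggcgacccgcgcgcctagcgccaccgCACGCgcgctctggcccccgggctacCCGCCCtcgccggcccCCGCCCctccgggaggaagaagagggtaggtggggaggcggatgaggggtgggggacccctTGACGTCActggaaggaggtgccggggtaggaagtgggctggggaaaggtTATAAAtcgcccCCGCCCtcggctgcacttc
All 4 windows hold GC boxes, with 2 in Vegfa, 4 in Vegfb, 2 in Pgf and 3 in Flt1, as do 32.7% of 32851 mouse windows of this length. The Flt1 window alone among the 4 holds a CRE, found in 1.55% of all windows, and a TATA box, found in 12.4%. A hypoxia response core is present in the windows of Vegfb, Pgf and Flt1 and in 38.6% of all windows, and an AP-1 site in none of the 4 and in 6.75% of all. The GC content of the 4 windows was 59.2% for Vegfa, 76.4% for Vegfb, 68.4% for Pgf and 70.4% for Flt1, against a median of 52.4%. These matches describe letters and do not show that a factor binds. Of the 10 genes, 7 had an upstream sequence.

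Among the ligands, Vegfa (uc008crn.4, chromosome 17, 46016993 to 46032369, minus strand, on mm10) stood highest. Its level was 144.7, 146.3 and 144.4 CPM in the controls and 102.9, 101.8 and 103.0 CPM with LINC01133. The LINC01133 libraries lay within 2 CPM of each other and well below every control. The log2 fold change was -0.50 (SE 0.0295, edgeR adjusted p = 3.8e-34), or 1.42-fold lower. It was -0.26 when libraries were scaled by their size alone, a move of the same size as that of the median of all tested genes; the direction held and the size did not. The table has 1 row for Vegfa, so VEGF-A splice forms that differ in matrix binding cannot be told apart.

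Vegfb (uc008gjv.2, chromosome 19, 6982473 to 6987651, minus strand) encodes a FLT1 ligand with little direct angiogenic activity in most tissues. It read 29.14, 30.73 and 31.11 CPM in the controls and 14.3, 13.54 and 13.36 CPM with LINC01133. The groups did not overlap and were far apart against the spread within each. Vegfb fell 2.21-fold (log2 fold change -1.14, SE 0.0642, edgeR adjusted p = 4.8e-36; -0.90 by library size alone).

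Vegfc (uc009lsc.1, chromosome 8, 54077606 to 54187096, plus strand), the main lymphangiogenic ligand, moved the other way. It read 3.402, 4.08 and 3.286 CPM in the controls and 16.13, 15.47 and 15.56 CPM with LINC01133. The LINC01133 libraries were close together and far above the controls. Vegfc rose 4.37-fold (log2 fold change 2.13, SE 0.103, edgeR adjusted p = 3.2e-42).

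Pgf (uc007ogq.2, chromosome 12, 85166635 to 85177790, minus strand), which encodes placental growth factor, read 0.533, 0.874 and 0.555 CPM in the controls, from 13 to 21 reads a library. With LINC01133 it read 8.49, 6.87 and 8.04 CPM. Control replicate 2 was the highest control and still lay far under the LINC01133 libraries. Pgf rose 11.8-fold (log2 fold change 3.56, SE 0.183, edgeR adjusted p = 1.4e-39).

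These opposite movements changed the make-up of the VEGF ligand transcripts. Per length of transcript, as reads per kilobase within a library, Vegfa made up 57.12%, 55.68% and 55.65% of the 4 ligands in the controls and 48.72%, 50.47% and 50.11% with LINC01133. Vegfb went from 39.97% ± 0.829 to 22.7% ± 0.492, Vegfc from 3.22% ± 0.345 to 17.7% ± 0.117 and Pgf from 0.655% ± 0.181 to 9.82% ± 0.856 (SD, n = 3). The groups did not overlap for any ligand, and each exact two-sided permutation test gave p = 0.1, the smallest possible with 3 against 3. Vegfa thus remained the most abundant ligand in every library. Its share fell by 6.385 percentage points, which does not depend on how libraries are scaled to each other; with Vegfb left out of the sum it fell by 29.16 points. The summed level of the 4 ligands was 59.17 ± 1.10 RPKM (CPM divided by the transcript length in kilobases) in the controls and 47.18 ± 1.08 RPKM with LINC01133 (SD, n = 3; exact permutation p = 0.1). With libraries scaled by size alone the sums were 52.3 to 56.2 and 49.4 to 53.2 RPKM, the groups overlapped and the exact permutation test gave p = 0.2.

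**Figure D2:**
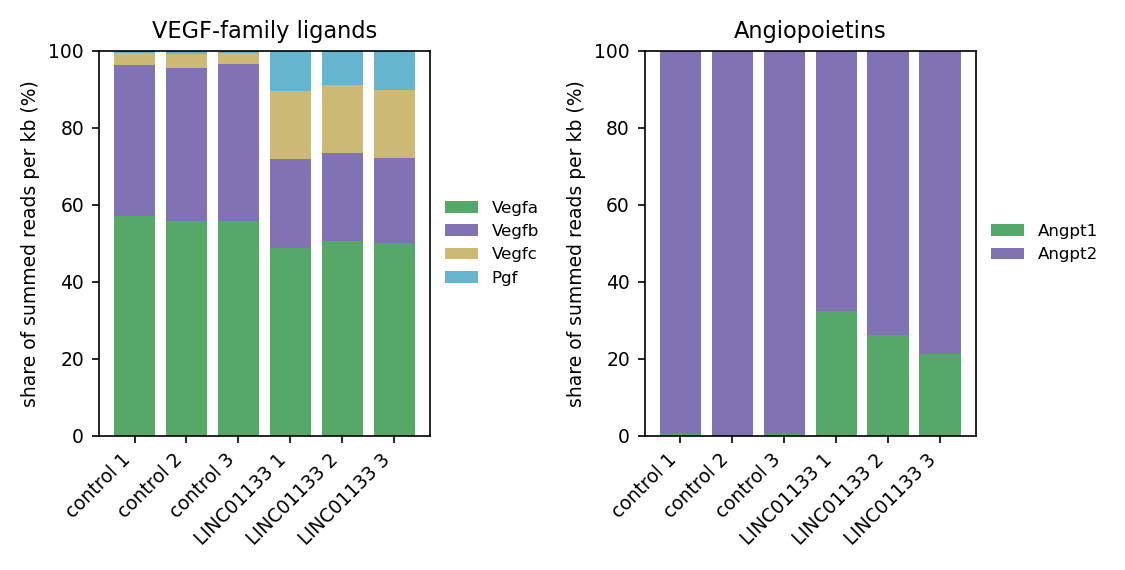
Share of each gene in the summed reads per kilobase (%, stacked to 100%) of the 4 VEGF-family ligands (left) and the 2 angiopoietins (right), 1 bar per library. Vegfc and Pgf are thin layers in the controls and make up 17.7% and 9.82% with LINC01133, and Angpt1 is near 0 in the controls and 21.1% to 32.4% of the angiopoietins with LINC01133.

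The receptors were scarce in the controls. Flt1 (uc009aoh.1, chromosome 5, 147561604 to 147726011, minus strand), a high-affinity VEGF receptor whose soluble form acts as a decoy, had 3, 10 and 5 counts in the controls and 239, 316 and 321 counts with LINC01133. The levels were 0.123, 0.416 and 0.213 CPM against 8.12, 8.72 and 9.70 CPM. The spread of the controls is that of single reads, and the LINC01133 libraries lay close together. Flt1 rose 34.8-fold (log2 fold change 5.12, SE 0.217, edgeR adjusted p = 6.4e-48; 4.78 to 5.68 over all settings). The table has 1 row for Flt1, so transcripts of the membrane-bound and the soluble form cannot be told apart.

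Kdr (uc008xul.2, chromosome 5, 75932827 to 75978458, minus strand), the main signalling receptor for VEGF-A, had 1, 0 and 2 counts in the controls and 8, 7 and 5 counts with LINC01133. Every LINC01133 library was above every control, at 0.151 to 0.272 CPM, which rest on 5 to 8 reads. The ratio over the groups was 4.85 with an exact 95% interval of 1.44 to 25.5, which covers counting error only. Without a count filter edgeR called it (log2 fold change 2.16, SE 0.913, adjusted p = 0.031, where 34.3% of 22697 rows were called higher), and DESeq2 did not (adjusted p = 0.089). Per length, Flt1 stood at 1.19 ± 0.107 RPKM and Kdr at 0.0240 ± 0.00716 RPKM with LINC01133 (SD, n = 3), so the receptor reads were nearly all from Flt1.

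The co-receptors fell, and the genes of the lymphatic ligands and their receptor differed among themselves. The neuropilins Nrp1 and Nrp2, which bind VEGF and semaphorins, fell from 49.4 ± 2.12 to 16.4 ± 0.735 CPM and from 395.8 ± 5.63 to 118.6 ± 2.28 CPM (log2 fold changes -1.59 and -1.74, edgeR adjusted p = 6.1e-57 and 1.2e-102). Figf, the gene for VEGF-D, fell from 1.99 ± 0.128 to 0.418 ± 0.0517 CPM (-2.25, adjusted p = 1.3e-12). Flt4, the VEGF-C receptor, had no read in the controls and 7, 13 and 9 counts with LINC01133, at least 7.03-fold higher if 3 counts are taken as the floor of the control group. It was below the count filter, and without that filter edgeR called it higher (adjusted p = 1.6e-05), as did DESeq2 (adjusted p = 0.00059). Vegfc and Flt4 were thus higher and Figf lower. The 3 tested genes of the list of 4 other VEGF genes fell (median log2 fold change -1.74, against 0.05 over all tested genes).

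Of the angiopoietins, Angpt1 (uc007vpc.2, chromosome 15, 42424723 to 42676977, minus strand) had 2, 0 and 2 counts in the controls and 168, 175 and 152 counts with LINC01133, or 5.71, 4.83 and 4.59 CPM. The gene was thus close to undetected in the controls and present in each LINC01133 library. The fitted log2 fold change was 6.39 (SE 0.339, edgeR adjusted p = 3.1e-38; 5.83 to 6.78 over all settings), and the ratio of counts was 90.0 with an exact 95% interval of 34.9 to 332.0. Its size rests on 4 control reads. The annotated antisense gene Gm17473 spans exon sequence of Angpt1 and has no row of its own.

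Angpt2 (uc009kzu.2, chromosome 8, 18690263 to 18741562, minus strand) read 8.77, 9.74 and 11.05 CPM in the controls and 5.67, 6.45 and 8.16 CPM with LINC01133. The groups were separate but close, and with libraries scaled by size alone they overlapped, the highest LINC01133 library at 8.90 CPM and the lowest control at 7.92 CPM. The log2 fold change was -0.54 (SE 0.104, edgeR adjusted p = 1.6e-06), and -0.29 by library size alone (adjusted p = 0.0066). Angpt2 lies within Mcph1 on the opposite strand, with 0 exon bases shared between their protein-coding transcripts. Mcph1, a DNA damage and chromosome condensation gene, fell from 113.0 ± 2.98 to 49.0 ± 0.987 CPM (log2 fold change -1.20, SE 0.0358). Whether unspliced Mcph1 reads add to the Angpt2 count was not tested.

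Angpt1 rose while Angpt2 fell. Per length, Angpt1 was 0.443%, 0% and 0.366% of the angiopoietin reads in the controls and 32.39%, 26.26% and 21.14% with LINC01133 (two-sided exact permutation test, p = 0.1, which is the lowest it can give). Per length Angpt2 remained the more abundant in every library, whereas by reads LINC01133 replicate 1 had 168 of Angpt1 and 167 of Angpt2. The receptor for both, Tek, had 2 counts over the controls and 67 with LINC01133, or 0.686 ± 0.141 CPM (log2 fold change 4.41, edgeR adjusted p = 2e-09). Its homologue Tie1 had 2 and 9 counts, below the filter, with overlapping groups.

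Angptl4 (uc008bzp.2, chromosome 17, 33773750 to 33781830, minus strand), a secreted inhibitor of lipoprotein lipase that is induced by fasting and hypoxia, had 4, 1 and 3 counts in the controls and 159, 146 and 138 counts with LINC01133. Its levels were 0.0416 to 0.164 CPM and 4.03 to 5.40 CPM. The groups were far apart. The fitted log2 fold change was 5.28 (SE 0.309, edgeR adjusted p = 2e-34; 4.90 to 5.66 over all settings), and the ratio of counts was 40.3 (exact 95% interval 20.3 to 93.9). Its relatives moved less, with 5 of the 6 tested genes of the angiopoietin receptor and angiopoietin-like list higher and 1 lower (median 0.96). Angptl2, the most abundant angiopoietin-like gene, was at 148.7 ± 3.00 and 157.4 ± 2.74 CPM (log2 fold change 0.08, adjusted p = 0.0052; adjusted p = 0.053 without control replicate 3); it was singled out after its values were seen. Angptl6 rose from 3.19 ± 0.498 to 6.48 ± 0.722 CPM and Angptl8 from 0.237 ± 0.0625 to 1.20 ± 0.340 CPM (log2 fold changes 1.02 and 2.32).

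Egfl7 (uc008ivp.2, chromosome 2, 26580014 to 26593120, plus strand), a secreted protein best known from endothelium and a binder of Notch receptors, had 8, 5 and 9 counts in the controls and 289, 349 and 315 counts with LINC01133. The levels were 0.328, 0.208 and 0.384 CPM against 9.82, 9.63 and 9.52 CPM, with the LINC01133 libraries nearly level. Egfl7 rose 31.1-fold (log2 fold change 4.96, SE 0.200, edgeR adjusted p = 3.8e-50). Its annotated end runs into Agpat2 on the opposite strand, with 0 exon bases shared between protein-coding transcripts, and Agpat2, a lipid acyltransferase gene, went from 36.96 ± 1.70 to 42.1 ± 1.37 CPM (log2 fold change 0.19, adjusted p = 0.00024). Gm20532, annotated as protein-coding on the same strand (26586639 to 26635634), also spans exon sequence of Egfl7 and has no row of its own. Whether Gm20532 reads add to the Egfl7 count was not tested. Within Egfl7, outside the exons of its protein-coding transcripts, lies the hairpin of the endothelial microRNA miR-126 (chromosome 2, 26591357 to 26591429, plus strand). Its mature 3p arm is shown with the seed, bases 2 to 8, in capitals, because the host gene is among those that rose.
mmu-miR-126a-3p: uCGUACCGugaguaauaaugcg
The Mir126a row of the table had 7 counts over the controls and 16 with LINC01133, with the groups overlapping, and was below the filter. Libraries of this kind are not made for mature microRNAs, so the level of miR-126 itself was not measured.

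Ordered by level per length, the controls ran from Vegfa (33.2 ± 0.235 RPKM) and Vegfb (23.7 ± 0.813) through Angpt2 (2.77 ± 0.322), Vegfc (1.91 ± 0.228), Pgf (0.389 ± 0.114) and Egfl7 (0.189 ± 0.0553) to Angptl4, Flt1, Angpt1 and Kdr, all under 0.1 RPKM. Angptl4 overlapped Flt1 in this order, and Angpt1 overlapped Kdr. With LINC01133 the order was Vegfa (23.5 ± 0.146 RPKM), Vegfb (10.7 ± 0.391), Vegfc (8.36 ± 0.191), Egfl7 (5.94 ± 0.0930), Pgf (4.64 ± 0.498), Angptl4 (2.38 ± 0.397), Angpt2 (1.90 ± 0.357), Flt1, Angpt1 (0.675 ± 0.0786) and Kdr, with Angptl4 and Angpt2 overlapping (SD, n = 3). Vegfa and Vegfb thus led in both groups, and Vegfc, Egfl7 and Pgf passed Angpt2. The summed level of the 10 genes was 62.2 ± 1.28 RPKM in the controls and 59.3 ± 1.41 RPKM with LINC01133, and the direction turned with libraries scaled by size alone, at 57.2 ± 2.13 and 64.5 ± 2.47 RPKM. Without Vegfa and Vegfb it was 5.36 ± 0.392 and 25.1 ± 1.01 RPKM, a ratio of 4.68 (exact two-sided permutation p = 0.1 for each sum).

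Other secreted factors that promote vessel growth were called higher in 10 of 14 tested genes and lower in 4 (median 1.10). Over all tested genes 44.5% were called higher and 40.5% lower, and 77.1% higher among those with a control mean under 1 CPM. Tgfa and Esm1 were among the latter. With the CPM filter 8 of 12 were higher and 4 lower (median 0.81). Tgfa, an EGF receptor ligand, rose from 0.112 ± 0.0257 to 81.6 ± 1.63 CPM, and Hbegf, another, from 29.6 ± 1.84 to 146.3 ± 2.65 CPM (log2 fold changes 9.46 and 2.30). Ctgf, a matrix-associated growth regulator, rose from 27.7 ± 0.673 to 87.6 ± 3.71 CPM. Hdgf, Spp1 and Cyr61 fell (-1.02, -0.68 and -0.46). Esm1, a secreted proteoglycan of endothelial tip cells, had 1 count over the controls and 1705 with LINC01133, or 17.3 ± 0.479 CPM; it was singled out after its values were seen. Fgf2 had 3 and 2 counts, below the filter.

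Genes listed as secreted inhibitors of angiogenesis went both ways, with 4 of 7 tested genes higher and 3 lower (median 0.81). Thbs1, the inhibitor thrombospondin-1, was the most abundant and fell from 590.0 ± 12.1 to 394.7 ± 2.46 CPM (log2 fold change -0.58). Adamts1 and Vash2 also fell (-1.42 and -0.95). Vash2 is not an established inhibitor, so the 3 lower genes of the list are not all inhibitors. Cxcl10, a chemokine that restrains vessels, rose from 0.877 ± 0.0769 to 26.2 ± 0.651 CPM, Col18a1, the source of endostatin, from 44.5 ± 1.36 to 78.0 ± 1.96 CPM, and Serpinf1 from 0.818 ± 0.315 to 1.99 ± 0.0991 CPM.

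Oxygen sensing feeds Vegfa and Angptl4 in many cells. Of the hypoxia-inducible factor (HIF) genes and their regulators, 3 of 9 tested were higher and 5 lower (median -0.25). Hif1a was at 312.7 ± 2.32 and 322.3 ± 7.40 CPM, not called (log2 fold change 0.04, adjusted p = 0.073), but called higher in 7 of 16 other settings, among them library size alone (0.29) and without LINC01133 replicate 2 (0.06, adjusted p = 0.016). Epas1, which encodes HIF-2 alpha, rose from 0.612 ± 0.224 to 13.9 ± 0.834 CPM (log2 fold change 4.49, adjusted p = 2.6e-56), and Egln3, a HIF prolyl hydroxylase, from 26.0 ± 2.36 to 77.4 ± 1.58 CPM. Vhl, which targets HIF for degradation, rose from 25.3 ± 0.864 to 36.0 ± 1.64 CPM. The partner subunit Arnt fell from 105.1 ± 4.82 to 44.0 ± 3.35 CPM and the asparaginyl hydroxylase Hif1an from 207.6 ± 2.86 to 90.8 ± 2.51 CPM. Arnt2, of the same list, fell from 275 counts over the controls to 7 with LINC01133 (log2 fold change -5.67, edgeR adjusted p = 1.7e-33). Known HIF targets were split, 7 of 16 higher and 7 lower, or 9 and 7 by library size alone (median 0.05, or 0.30). Ldha, the glucose transporter Slc2a1 and Pgk1 fell, to 648.5 ± 9.20, 92.3 ± 3.65 and 151.8 ± 2.65 CPM from 1167 ± 36.7, 184.9 ± 1.33 and 265.5 ± 2.94 CPM, while Pfkfb3, a glycolytic regulator, rose from 2.96 ± 0.315 to 58.8 ± 1.42 CPM and Ero1l and Pdk1 rose less (0.80 and 0.57).

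The peroxisome proliferator-activated receptors (PPARs) are the classic inducers of Angptl4. Among them, Ppard fell from 65.0 ± 1.33 to 24.5 ± 1.17 CPM (log2 fold change -1.40, adjusted p = 2.7e-58), Ppara rose from 0.265 ± 0.0687 to 0.940 ± 0.201 CPM (1.80), and Pparg was not called, at 0.669 ± 0.0517 and 0.520 ± 0.0943 CPM. Of the 7 tested genes of this list 4 rose and 1 fell (median 0.98). Among the 4, Slc25a20 and Ppara passed the count filter only through the LINC01133 libraries. Both could enter the test only by being higher there. The mitochondrial carnitine carrier Slc25a20 rose from 7 to 1235 counts, or 12.5 ± 0.924 CPM, Cpt1a from 21.8 ± 0.537 to 67.9 ± 2.79 CPM and the lipid droplet gene Plin2 from 65.7 ± 3.23 to 129.4 ± 3.21 CPM. Lpl, the enzyme that ANGPTL4 inhibits, had 1 and 3 counts. Lipg, the related endothelial lipase, was without a read in the control libraries and at 21.8 ± 0.423 CPM in the others, at least 521-fold higher, and the lipase maturation factor Lmf1 fell (-1.53).

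**Figure D3:**
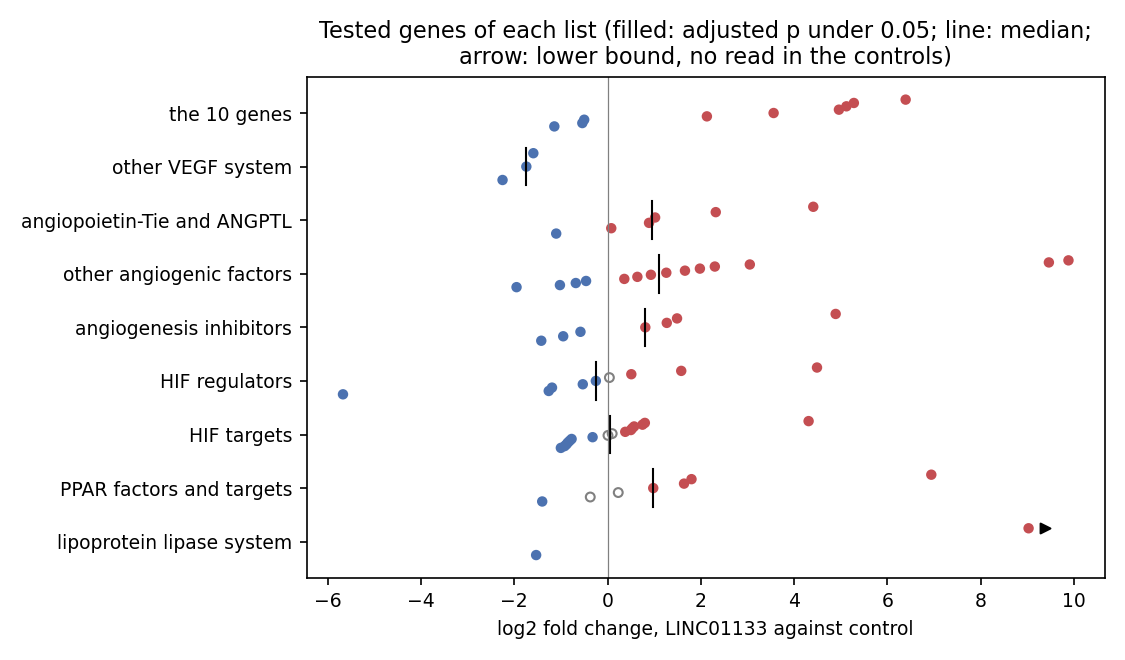
Log2 fold change (LINC01133 against control, edgeR) of each tested gene, by list; filled points were called, open points were not, vertical lines are medians, and the arrow marks Lipg at its lower bound. The 3 tested genes of the other VEGF system all fell, whereas HIF targets are spread around 0 with 7 higher and 7 lower.

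Among the genes of these lists (64 tested), the one with the log2 CPM profile most alike over the 6 libraries, each centred on its mean, was Cyr61 for Vegfa (root mean square difference 0.037), Hif1an for Vegfb (0.070), Hbegf for Vegfc (0.110) and Thbs1 for Angpt2 (0.194). It was Tek for Pgf (0.340), Epas1 for Angptl4 (0.206), and Cxcl10 for Egfl7 (0.151), Flt1 (0.451) and Angpt1 (0.455). With 2 groups of libraries this likeness mostly reflects a like fold change.

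Markers of vessel cells did not move together. Of 7 tested endothelial markers 6 were higher and 1 lower, against 44.5% and 40.5% of all tested genes. Of the 6, Pecam1, Icam2, Tek and Esam passed the count filter only through the LINC01133 libraries. Of the 19 in the table, 5 (Cdh5, Erg, Sox17, Sox18 and Clec14a) had no read in the controls. The defining endothelial genes Cdh5 and Erg, the latter singled out after its values were seen, had 1 and 0 counts over the LINC01133 libraries. Pecam1 rose from 11 to 544 counts, or 5.48 ± 0.416 CPM. Control replicate 3 held 9 of the 11 control reads, and the log2 fold change was 5.13, or 6.91 without that library. Cd34, also a progenitor marker, fell from 180.3 ± 4.58 to 1.82 ± 0.331 CPM, and with it the summed level of the list, from 35.82 to 37.58 RPKM in the controls to 4.57 to 5.32 RPKM with LINC01133. Without Cd34 the sum was higher with LINC01133, at 4.29 to 4.91 RPKM against 1.23 to 1.30 RPKM. The other markers called higher, named after their values were seen, were Icam2 (1 and 80 counts), Eng (83 and 270), Mmrn2 (101 and 216) and Esam (35 and 85). The rise of Flt1, Tek and Egfl7 thus came with some endothelial markers higher, Cd34 lower, and Cdh5 and Erg at or near 0. The source of these transcripts was not tested.

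Pericyte markers had 3 of 6 tested genes higher and 3 lower, Rgs5 rising from 4 to 1193 counts, Cspg4 from 24 to 140 counts, and Pdgfrb falling from 106.7 ± 2.47 to 0.775 ± 0.251 CPM. Their summed level was 20.6 to 21.6 RPKM in the controls and 3.60 to 4.39 RPKM with LINC01133. Without Pdgfrb the sum was 1.35 to 1.52 RPKM in the controls and higher with LINC01133, at 3.48 to 4.28 RPKM. Leukocyte markers had 3 of 4 higher and 1 lower, with a summed level of 3.44 to 4.62 and 9.60 to 10.1 RPKM. Without Cd68 the sum was lower with LINC01133, at 1.55 to 1.71 RPKM against 1.82 to 2.55 RPKM. Cd68 rose from 2.21 ± 0.321 to 10.2 ± 0.245 CPM, and Ptprc, which marks all leukocytes, had 5 and 18 counts. The macrophage and granulocyte gene Lyz2, singled out after its values were seen, fell from 135 to 13 counts (log2 fold change -3.79, or -4.55 without LINC01133 replicate 3). Adgre1 and Cd3e had no read in the controls and 23 and 8 counts with LINC01133. The part of such markers in the values of the 10 genes was not tested. In bulk RNA, more cells of a type and more RNA per cell cannot be told apart.

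Of the 18 nearest neighbours of the 9 tested genes, 16 were called, 14 in the direction of the gene and 2 against it. Over all tested genes 84.9% were called, 44.5% higher and 40.5% lower. How often neighbours of other genes share a direction was not tested, so the 14 do not show regional regulation. With libraries scaled by size alone 13 were called, 11 in the direction of the gene. The lower Vegfa, Vegfb and Angpt2 had lower neighbours, Mrpl14 and Mrps18a (log2 fold changes -0.85 and -0.26), Fkbp2 (-0.43), and Arhgef10 and Agpat5 (-3.19 and -0.32), with Dnajc4 beside Vegfb not called. Arhgef10 lies 3690 kb from Angpt2. Pgf had Rps6kl1 (1.94) and Eif2b2 (0.19), both higher. Vegfc rose while its nearest tested genes on either side, Neil3 and Spcs3, fell (log2 fold changes -1.12 and -0.36). Egfl7 lies 63.4 kb from Notch1, which rose from 33.3 ± 2.56 to 121.8 ± 0.664 CPM (1.87), and 35.3 kb from Fam69b, which also rose (1.24). Angptl4 lies 28.7 kb from Kank3 (1.70) and 13.2 kb from Rab11b (0.18). Flt1 lies 13.1 kb from Pan3 and 134.0 kb from Pomp, both slightly higher (0.37 and 0.40). Angpt1 lies 344.0 kb from Rspo2, a Wnt pathway agonist with 0 counts in the controls and 111 with LINC01133, at least 26.9-fold higher, while Abra on its other side was not called (-0.55, or -0.84 and called lower without control replicate 2). Kdr lies 735.0 kb from Pdgfra, a growth factor receptor that fell (-2.15). The neighbours are the nearest tested genes that do not overlap, and those described were picked after their values were seen.

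**Figure D4:**
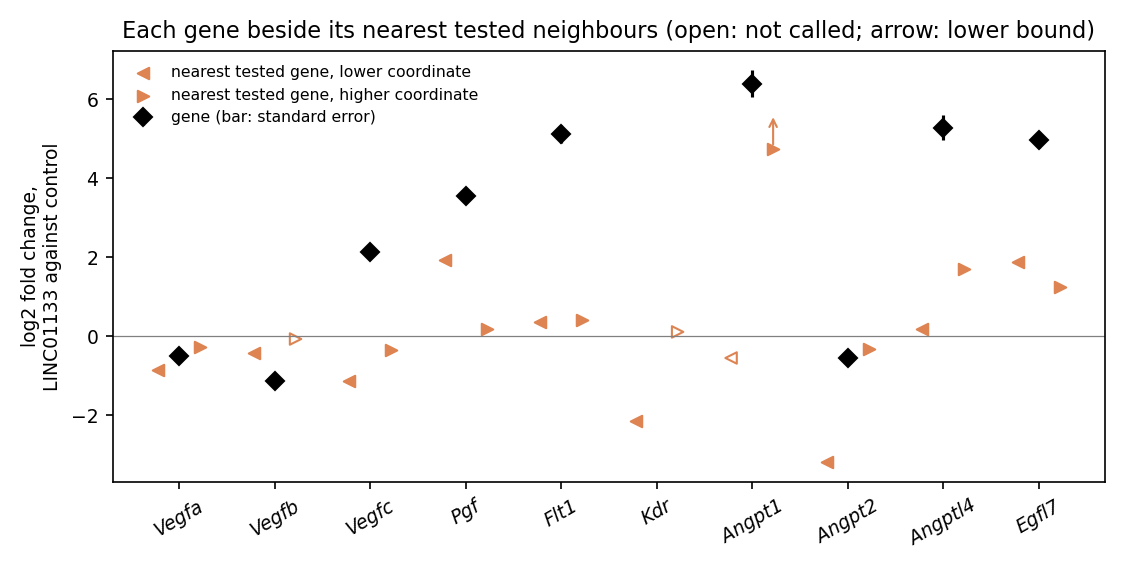
Log2 fold change of each of the 10 genes (diamonds, with the standard error; Kdr was not tested) beside its nearest tested gene on the side of lower and of higher coordinate (triangles; open if not called; the arrow marks Rspo2 at its lower bound). Flt1, at 5.12, stands far above its neighbours at 0.37 and 0.40, and both neighbours of Vegfc lie below 0.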

How the data were processed

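The authors deposited 1 table of raw read counts per gene (a UCSC transcript identifier paired with a symbol, and a length in bases) for the 6 libraries, per the file headers. The length column is as deposited, in bases, and its origin is not recorded there. Libraries were made with a TruSeq kit from total RNA, per the labels' protocols. The submitters' processing notes name mm10 and bcl2fastq. Aligner, counter, annotation and strand setting: not given in the sources used here, so reads of overlapping or antisense genes cannot be told apart.

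Of rows that share a symbol, the most abundant was used under that symbol. Replicates of a group differed by more than sampling noise (chi-square 1.58 to 2.14 per degree of freedom over 6 pairs, rows with at least 20 summed counts, Rn45s left out). The test was edgeR 4.0.16 (R 4.3.3): quasi-likelihood F test, TMM, filterByExpr (0.372 CPM, 10 counts at the median library size, in at least 3 libraries), robust dispersions and Benjamini-Hochberg adjustment over 14116 genes. It was also run on simulated data in which only a small set of well-counted genes differed. That run does not cover genes with few reads or a comparison in which most genes differ. CPM and RPKM use TMM-scaled library sizes, and errors are SD over 3 libraries. Floors (3 counts over a group) and exact 95% intervals cover counting error only. Positions are from GENCODE M21 (GRCm38), matched by symbol. Alternatives were other scalings, count filters, a replicate block, DESeq2 1.42.0, limma voom (limma 3.58.1), non-robust dispersions, removal of Rn45s and each library left out.

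The 10 genes and the 12 lists (130 symbols, 127 found) were chosen with earlier results of these data known. Named genes are the 10, fixed members of the lists, up to 3 called members per direction by smallest p, the first 2 symbols and up to 2 abundant called genes of each marker list, and the list gene most alike each tested one of the 10; genes outside this rule are marked or were taken by position. LINC01133 itself was not analysed here and cannot serve to check the labels. Plots used matplotlib 3.10.9. Some list genes are not reported here by name.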

Additional observations from a re-analysis of the deposited data

How the results depend on the processing

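Of the 10 genes, 9 kept the direction and the call of their fold change under the 16 alternative fits. Log2 fold changes ranged from -0.52 to -0.26 for Vegfa, -1.18 to -0.90 for Vegfb, -0.69 to -0.29 for Angpt2, 2.06 to 2.37 for Vegfc and 3.43 to 3.82 for Pgf. Kdr (2.28 from the ratio of counts, not tested) was called without a count filter (2.16) and ranged from 1.69 to 3.29 with 1 library left out. Requiring at least a 2-fold difference left 4819 of 11990 genes called and 1 of the 3 lower genes, Vegfb. The CPM filter left 3 called genes of the angiopoietin receptor and angiopoietin-like list (6 in the main test) and 4 of the endothelial markers (7), and no filter gave 7 leukocyte markers (4), because the number of genes tested differed. The fall in the Vegfa share was -7.407 points without division by length and -29.16 without Vegfb. Of alternatives chosen after seeing the data, library size alone turned the ratio of the summed level of the 10 genes from 0.953 to 1.13, and leaving out 1 gene turned that of the endothelial markers (0.133; 3.56 without Cd34), the pericyte markers (0.188; 2.66 without Pdgfrb) and the leukocyte markers (2.55; 0.782 without Cd68). Egln1 (-0.25) was at -0.01 by library size alone, and Esam and Angptl7 lost their calls in 4 and 3 settings; these 3 genes were picked after their values were seen. Same-numbered libraries did not deviate together (correlations -0.0623 to -0.0138), so the numbers are not taken to pair them; with the replicate block 11817 genes were called, with 6 of the 10 genes higher and 3 lower, as in the main test. Counting depth limits Kdr, Angpt1, Angptl4 and Flt1, which had 3 to 18 reads over the controls.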
